A study of Mus musculus with 27 samples.

Results

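The clustered protocadherins are the genes of 3 neighbouring arrays on mouse chromosome 18, named alpha, beta and gamma. They were taken as every symbol of the expression tables that begins with Pcdha and a number or a c, with Pcdhb and a number, or with Pcdhga, Pcdhgb or Pcdhgc and a number. This rule found 59 of 23382 gene symbols, 15 alpha, 22 beta and 22 gamma. The cells were B220-positive cells, sorted by a form of CD45 found on B cells. They came from VavPBcl2 mice, whose blood cells carry a Bcl2 transgene driven by the Vav promoter, so both groups carry Bcl2. Fetal liver stem cells of embryonic day 13.5 were infected with MSCV-SHMT2, a retroviral vector for the mitochondrial enzyme SHMT2, or with empty vector, and were given to irradiated wild type mice, from whose spleens the cells were later isolated, for RNA and chromatin from what the labels call tumors. The sources used here do not give the age of the recipients, and the retrovirus marks only cells that descend from the infected stem cells. This origin is labelled for RNA-seq and ChIP-seq. The bisulfite samples are labelled only with the cell type, the model and SHMT2 or control, and 2 of their SHMT2 samples have another name in the transfection field, so their titles were followed. There were 3 SHMT2 and 3 vector libraries for RNA-seq, 3 and 2 peak lists for trimethylated lysine 4 of histone H3 (H3K4me3), 2 and 2 lists for its monomethylated form (H3K4me1), and 3 and 3 tables of enhanced reduced representation bisulfite sequencing (ERRBS). The labels do not tell whether the libraries of a group are from separate animals, and p-values therefore measure no more than the spread between these samples, part of which may be technical.

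Protocadherins of these arrays are cell surface adhesion proteins, best known in neurons, where each cell uses its own set of members and matching sets on neighbouring processes let a neuron tell itself from others. Each alpha and gamma variable exon has its own promoter and is spliced to constant exons shared by the whole array, while beta genes have a single exon and no shared part. Promoter choice is known to depend on the DNA-binding protein CTCF and on cohesin, and DNA methylation of a variable promoter, placed by Dnmt3b, goes with its silence. Promoters of the C-type members, Pcdhac1, Pcdhac2, Pcdhgc3, Pcdhgc4 and Pcdhgc5, are used more steadily than the others in neurons.

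Mouse Shmt2 was listed at 244, 345 and 259 TPM in SHMT2 cells and at 174, 223 and 157 TPM in vector cells, and the labels do not give the species of the SHMT2 in the vector. The B cell genes were high in every RNA library, such as Cd79a, a part of the B cell receptor complex, at 737 to 774 TPM in SHMT2 cells and 522 to 655 TPM in vector cells. Markers of other cell types were also listed. The 8 erythroid marker genes summed to 50.5 to 140 TPM in SHMT2 cells and 57.3 to 3669 TPM in vector cells, and the 7 macrophage and myeloid markers to 79.5 to 115 TPM in SHMT2 cells and 76.5 to 556 TPM in vector cells, with vector replicates 2 and 3 high for both, and the part of these cells in the expression results was not tested. The 6 endothelial markers summed to 132 to 144 TPM in SHMT2 cells and 100.7 to 176 TPM in vector cells. Of these sums Pecam1 alone had 130.2 to 140.2 TPM in SHMT2 cells and 99.0 to 169 TPM in vector cells. Kdr, Tek and Emcn were under 1 TPM throughout. Cdh5 was listed at 0.846 to 2.31 TPM in SHMT2 cells and 1.00 to 2.59 TPM in vector cells. Stab2 was listed at 0.470 to 0.872 TPM in SHMT2 cells and at 0.379, 4.39 and 3.36 TPM in vector cells. The 9 stromal markers summed to 1.98 to 7.37 TPM in SHMT2 cells and 2.49 to 4.70 TPM in vector cells. Of 7 neural and glial markers, Snap25 and Rbfox3 were listed at 0 throughout and Map2 made up most of a sum of 27.1 to 43.8 TPM in SHMT2 cells and 13.0 to 59.7 TPM in vector cells. The tables list all 4 of their haemoglobin genes at 0 in each of the 6 libraries, and for that reason a 0 was not taken as absence.

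The tables listed almost no clustered protocadherin RNA outside the far end of the gamma array. TPM is a transcript abundance that is corrected for length and set to an equal total per library, which leaves the sequencing depth unknown. All 15 alpha members were listed at 0 in all 6 libraries. Of the 22 beta members 13 were at 0 in all 6, and no value passed 0.24 TPM. The whole beta array summed to 0.123, 0.0757 and 0.303 TPM in SHMT2 cells and to 0.157, 0.386 and 0.126 TPM in vector cells. None of the 22 gamma members was at 0 in every library, 9 were above 0 in all 6, and the gamma array summed to 5.54, 5.55 and 2.95 TPM in SHMT2 cells and to 7.33, 2.74 and 3.12 TPM in vector cells. These sums overlapped between the groups. In bulk RNA, fewer cells of a type and less RNA per cell cannot be told apart. Alpha and gamma transcripts share their constant exons, and the sources used here do not give how reads in those exons were divided among members, so levels of single members of these arrays are uncertain.

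Pcdhgc4, a C-type member, was the clustered protocadherin with the highest mean and the only one to reach a mean of 1 TPM, the minimum for the expression test. It was listed at 1.43, 1.27 and 0.300 TPM in SHMT2 cells and at 2.91, 1.25 and 0.567 TPM in vector cells. The groups overlapped, with vector replicate 1 highest and SHMT2 replicate 3 lowest. Its log2 fold change, SHMT2 over vector on the log2(TPM + 1) scale, was -0.31 with a standard error of 0.41 and an adjusted p of 0.717 in limma, a linear model fitted across all 11117 genes that reached the minimum, with Benjamini-Hochberg adjustment. Leaving out SHMT2 replicate 3 gave a log2 fold change of -0.03, and leaving out vector replicate 3 gave -0.62. Without vector replicates 2 and 3, an alternative chosen after seeing the data, it was -1.02 with an adjusted limma p of 0.274. Without vector replicate 1 the member did not reach the minimum. The fit with all libraries called 0% of genes with the adjusted p limit of 0.05, so no member was called on a background where nothing was. At an unadjusted p under 0.05, 11.3% of genes were higher and 5.4% lower in SHMT2 cells, and the values of the groups did not overlap for 16.9% that were higher and 8.26% that were lower. With no minimum level, 31 members entered the fit and none was called. Pcdhgc5 alone had an unadjusted limma p under 0.05, at 0.044, with an adjusted p of 0.377 and a log2 fold change of 0.24.

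Next in level stood Pcdhgb7 and Pcdhgc3. Pcdhgb7, a B-type gamma member, was listed at 0.794, 1.25 and 0.428 TPM in SHMT2 cells and at 1.73, 0.382 and 0.808 TPM in vector cells. Pcdhgc3, a C-type member, was listed at 0.760, 1.09 and 0.825 TPM in SHMT2 cells and at 0.835, 0.185 and 0.496 TPM in vector cells. Both overlapped between groups, with exact two-sided permutation p of 0.9 for Pcdhgb7 and 0.3 for Pcdhgc3, where 3 against 3 cannot go below 0.1. These 3 members made up 52.7% to 65.1% of the gamma sum in SHMT2 cells and 60.02% to 74.6% in vector cells, and their order differed between libraries.

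Below them came Pcdhga10, Pcdhgb6 and Pcdhgc5. Pcdhga10 was listed at 0.687, 0.106 and 0.300 TPM in SHMT2 cells and at 0.483, 0 and 0.314 TPM in vector cells. Pcdhgb6 was listed at 0.202, 0.405 and 0.286 TPM in SHMT2 cells and at 0.256, 0.142 and 0.180 TPM in vector cells. Pcdhgc5, the last member of the array, was listed at 0.356, 0.356 and 0.252 TPM in SHMT2 cells and at 0.270, 0.0998 and 0 TPM in vector cells. Their groups overlapped, and in Pcdhgc5 the overlap came from vector replicate 1. The other 16 gamma members stayed under 0.2 TPM in every library. Group means were higher in SHMT2 cells for 15 gamma members and lower for 7, and in 0 of the 22 did the groups separate.

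**Figure D1:**
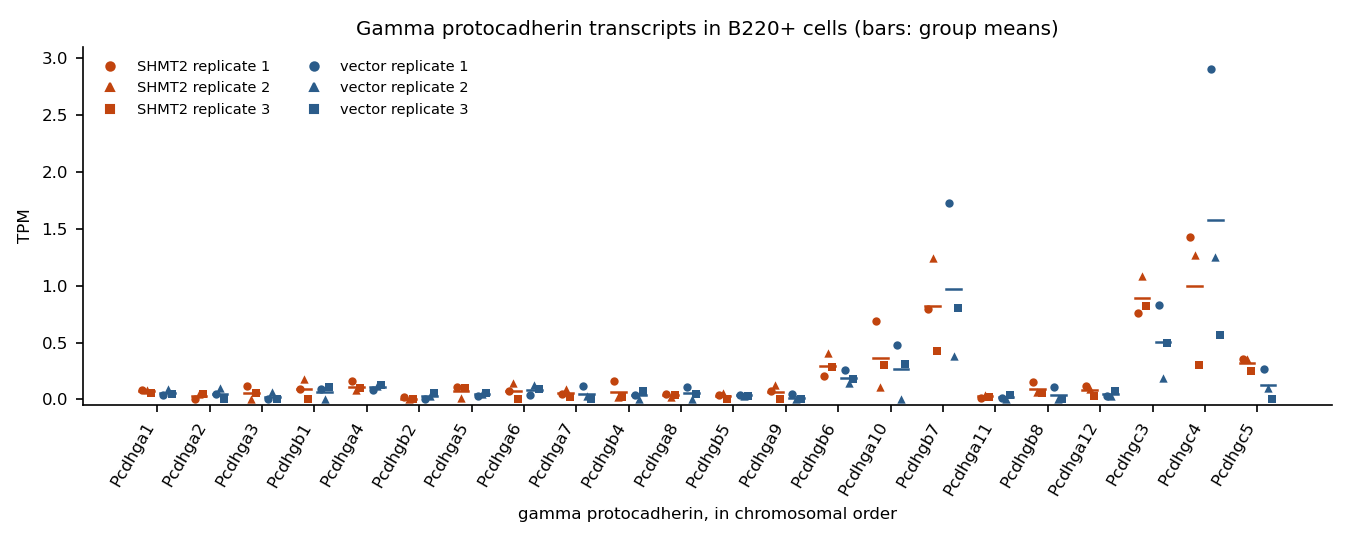
TPM of the 22 gamma members in chromosomal order, 1 point per library, SHMT2 (orange) left of vector (blue), with group means as bars. Pcdhgc4, Pcdhgb7 and Pcdhgc3 stand above the rest, with vector replicate 1 at 2.91 TPM for Pcdhgc4, and most members lie near 0.

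Among beta members the highest means were those of Pcdhb17, Pcdhb22 and Pcdhb19. Pcdhb17 was listed at 0.0711, 0 and 0.0671 TPM in SHMT2 cells and at 0, 0.240 and 0 TPM in vector cells. Pcdhb22 was listed at 0.0246, 0.0493 and 0.186 TPM in SHMT2 cells and at 0, 0.0553 and 0.0292 TPM in vector cells. Pcdhb19 was listed at 0, 0 and 0.0251 TPM in SHMT2 cells and at 0.0269, 0.0298 and 0.0315 TPM in vector cells, groups that did not overlap. At such levels no change was detectable, and Pcdhb19 had an adjusted limma p of 0.565 in the fit with no minimum level.

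Genes known to act on the arrays were expressed in both groups, and 28 of the 29 listed reached the minimum level. None was called by limma, and their median log2 fold change was -0.02, against 0.02 over all genes tested. Of the 28, 3 were higher and 2 lower in SHMT2 cells at an unadjusted limma p under 0.05, against 11.3% and 5.4% of all genes. The groups did not overlap for 5 that were higher and 3 that were lower, against 16.9% and 8.26% of all genes. Ctcf, which binds the variable promoters, was listed at 121, 142 and 137 TPM in SHMT2 cells and at 132, 131 and 130 TPM in vector cells, overlapping groups with a log2 fold change of 0.02. Dnmt3b was listed at 1.66, 1.57 and 1.48 TPM in SHMT2 cells and at 1.52, 2.16 and 1.499 TPM in vector cells. Its level lay below that of Dnmt3a, the other de novo methyltransferase, at 13.7 to 16.8 TPM in SHMT2 cells and 12.8 to 16.2 TPM in vector cells, and that of the maintenance enzyme Dnmt1, at 81.7 to 100.3 TPM in SHMT2 cells and 67.0 to 101.3 TPM in vector cells.

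Of the cohesin genes, the ring subunit Rad21 overlapped between groups, at 177 to 211 TPM in SHMT2 cells and 173 to 233 TPM in vector cells. The subunit Smc3 did not overlap, at 72.3, 74.7 and 73.5 TPM in SHMT2 cells and 69.5, 65.8 and 63.9 TPM in vector cells, with a log2 fold change of 0.14 and an adjusted limma p of 0.370. The cohesin loader Nipbl lay the other way, at 62.6, 67.5 and 69.3 TPM in SHMT2 cells and 75.9, 71.3 and 89.2 TPM in vector cells, with a log2 fold change of -0.24 and an adjusted limma p of 0.335. Wapl, which releases cohesin, overlapped at 62.8 to 72.3 TPM in SHMT2 cells and 67.0 to 84.1 TPM in vector cells.

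Among repressors, Smchd1, which silences the arrays, overlapped at 117 to 132 TPM in SHMT2 cells and 95.2 to 123 TPM in vector cells. The histone methyltransferase gene Setdb1 also overlapped, at 29.6 to 33.3 TPM in SHMT2 cells and 28.3 to 33.8 TPM in vector cells. Trim28, the corepressor that recruits Setdb1, did not overlap, at 230, 224 and 222 TPM in SHMT2 cells and 189, 201 and 176 TPM in vector cells. Its log2 fold change was 0.26 with a standard error of 0.08 and an adjusted limma p of 0.219. Genes with an unadjusted p under 0.05 also included, named after their values were seen, the cohesin genes Smc1a and Pds5a, with log2 fold changes of 0.45 and 0.24, and the methylcytosine oxidase gene Tet3, with -0.54. Their adjusted limma p were 0.204, 0.285 and 0.204.

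All 13 non-clustered family members found in the tables had a mean under 1 TPM, so 0 were tested, and the highest single value was 1.46 TPM for Pcdh9 in vector replicate 2. Of 18 genes whose proteins bind or act downstream of clustered protocadherins, 16 were tested, 0 were called by limma and 0 had an unadjusted p under 0.05. Their median log2 fold change was 0.08, with 13 positive and 3 negative. The 4 with the smallest p were Abi1, a subunit of the actin-regulating WAVE complex, Ctnnb1, the beta-catenin gene, Pdcd10 and Cyfip2, another WAVE subunit, with log2 fold changes of 0.27, 0.19, 0.26 and 0.30 and adjusted limma p of 0.356, 0.363, 0.399 and 0.449.

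H3K4me3, the mark of active promoters, was found at 13 of 22 gamma starts, all of them from Pcdhga5 onward, and at 1 alpha and 1 beta start. From Pcdhga5 onward, Pcdhga8, Pcdhga9 and Pcdhgc5 had no peak. The start of a member was taken as its lower coordinate in the RefSeq annotation of GRCm38.p6 (mm10), since these genes run toward higher coordinates, and a peak counted when it touched the 1 kb on either side. Pcdha4-g, counted as alpha by its symbol, is Gm37013 in that annotation and spans chr18:36952648-37841873, up to the end of the gamma array. It starts 41 bases from Pcdha4 and was not given a start of its own, which leaves 58 distinct starts. Of these, 15 had a peak in at least 1 of the 5 libraries, 1 alpha, 1 beta and 13 gamma, against 57.3% of 16457 gene starts on other autosomes. Of the 58 starts, 6 had a peak in all 5 libraries, against 53.2% of the other gene starts. They were Pcdhga5, Pcdhgb5, Pcdhgb6, Pcdhgb7, Pcdhgc3 and Pcdhgc4. The alpha and the beta peak, at Pcdha8 and Pcdhb1, were called in vector replicate 6 alone.

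**Figure D2:**
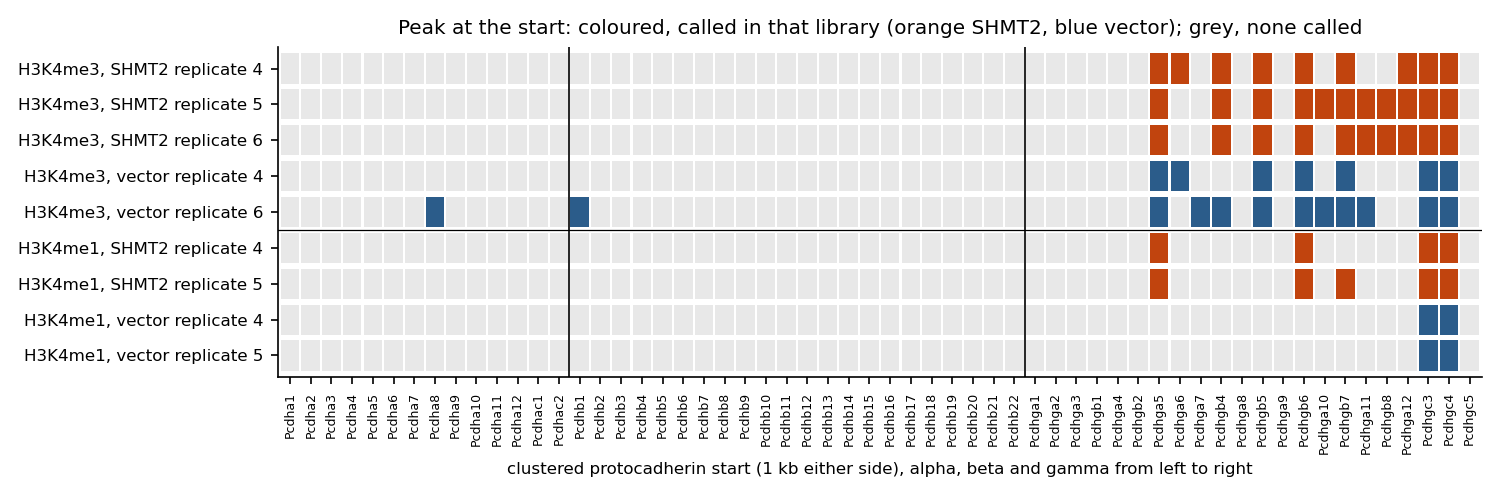
Peak calls at the 58 starts (columns, alpha, beta and gamma from left to right) in 5 H3K4me3 and 4 H3K4me1 libraries (rows), coloured where a peak touched the start window, orange in SHMT2 and blue in vector libraries. H3K4me3 fills 7 to 11 gamma starts per library and H3K4me1 2 to 5, and Pcdhgc3 and Pcdhgc4 are filled in every row.

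Of the peaks at member starts, that at Pcdhgc3 had the highest H3K4me3 fold enrichment in all 5 libraries. Its gene spans chr18:37806410-37841873, and its H3K4me3 peak ran over 2579 to 2769 bases in the SHMT2 libraries and 1970 and 2017 bases in the vector libraries. The authors' fold enrichment for it was 43.0 to 54.4 in the SHMT2 libraries and 41.0 and 44.0 in the vector libraries. Peaks were ranked within each list by the authors' q-value, and by that measure 2.46% to 7.01% of the peaks stood above it in the SHMT2 lists and 5.61% and 8.35% in the vector lists. The peak at Pcdhgc4 (chr18:37815079-37841873) ranked lower, with 26.3% to 35.6% of peaks above it in the SHMT2 lists and 35.2% and 40.8% in the vector lists. No peak of either mark touched the start of Pcdhgc5.

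The peaks at other gamma starts were short, of 207 to 833 bases apart from that of Pcdhga12. At Pcdhgb6, 31.7% to 45.5% of peaks stood above it in the SHMT2 lists and 35.6% and 81.1% in the vector lists. At Pcdhgb7 the shares were 35.4% to 51.4% in the SHMT2 lists and 44.2% and 83.1% in the vector lists. At Pcdhga5 they were 39.7% to 55.2% in the SHMT2 lists and 63.0% and 65.9% in the vector lists, and at Pcdhgb5 55.6% to 75.6% in the SHMT2 lists and 71.7% and 79.2% in the vector lists. Vector replicate 4 gave the 81.1% for Pcdhgb6 and the 83.1% for Pcdhgb7, and in vector replicate 6 the Pcdhgb6 peak stood above that of Pcdhgc4. Lists of different lengths do not allow these ranks to be read as a change.

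The remaining gamma peaks varied from library to library. Pcdhgb4 had a peak in 3 SHMT2 libraries and 1 vector library, Pcdhga11 in 2 SHMT2 libraries and 1 vector library, Pcdhga6 and Pcdhga10 in 1 of each, and the pseudogene Pcdhgb8 in 2 SHMT2 libraries and 0 vector libraries. Pcdhga12 was the only member with a peak in every SHMT2 library and in neither vector library, a pattern that 0.237% of other gene starts had. No member had a peak in both vector libraries and in no SHMT2 library, as 0.0122% of other gene starts did. The library with the fewest gamma starts marked was vector replicate 4, and Pcdhga7 was marked in vector replicate 6 alone.

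RNA of most marked members was low. Pcdhga5, marked in all 5 libraries, was listed at 0.107, 0.0153 and 0.101 TPM in SHMT2 cells and at 0.0309, 0.0514 and 0.0543 TPM in vector cells. Pcdhgb5, also marked in all 5, was listed at 0.0418, 0.0558 and 0 TPM in SHMT2 cells and at 0.0424, 0.0313 and 0.0331 TPM in vector cells. The mean TPM of Pcdhgc4 was 21.5 times that of Pcdhga5 and 37.8 times that of Pcdhgb5. Pcdhgb4 was listed at 0 to 0.161 TPM over the 6 libraries, Pcdhga6 at 0 to 0.149 TPM, Pcdhga7 at 0 to 0.119 TPM, Pcdhga11 at 0.00573 to 0.0409 TPM and Pcdhgb8 at 0 to 0.1503 TPM. Pcdha8 and Pcdhb1 were listed at 0 throughout. The Pcdhga12 peak lay between 325 and 1550 bases past the start, with fold enrichments of 6.94 to 14.04 in the authors' lists. Pcdhga12 RNA was listed at 0.122, 0.0918 and 0.0289 TPM in SHMT2 cells and at 0.0310, 0.0343 and 0.0726 TPM in vector cells, which overlapped. The SHMT2 lists were also the longer ones, with 34458 to 38249 H3K4me3 peaks against 33313 and 33806 in the vector lists, and the part of list length in these patterns was not tested.

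H3K4me1, which marks enhancers and the flanks of promoters, touched 5 of the 58 starts, all gamma, against 60.1% of other gene starts. Pcdhgc3 and Pcdhgc4 carried it in all 4 libraries, as 41.2% of other gene starts did. Pcdhga5 and Pcdhgb6 carried it in both SHMT2 libraries and in neither vector library, as 5.71% of other gene starts did, and Pcdhgb7 in SHMT2 replicate 5 alone. The reverse, both vector libraries and no SHMT2 library, was seen at 0 members and at 0.0182% of other gene starts. The SHMT2 lists held 48993 and 52056 peaks and the vector lists 33119 and 37274. Merged across libraries, the gamma array had 10 H3K4me1 regions. Of them 2 were called in every library, as 44.9% of all merged regions were, and 6 in both SHMT2 libraries and no vector library, a pattern that 16.1% of all merged regions had. Of those 6, 4 lay away from any start. Those upstream of Pcdhgc3 were at chr18:37786633-37787689 and chr18:37790538-37792349, and those beyond Pcdhgc5 were at chr18:37822911-37825378 and chr18:37840204-37841150. The region at chr18:37822911-37825378 overlapped an H3K4me3 region at chr18:37824976-37825458, centred 5671 bases past the Pcdhgc5 start, which was called in all 3 SHMT2 libraries and in neither vector library, as 2.05% of all merged H3K4me3 regions were. Peaks were called in each library separately, so presence or absence is a description with no test.

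Averaged over cytosines, DNA methylation of each array lay above that of all covered autosomal cytosines in both groups. By tiles of 1 kb the order was reversed, with a median of 67.3% in the arrays and 76.8% over all autosomal tiles. ERRBS reads CpG-rich parts of the genome, and its tables listed 1330340 to 1424115 CpG cytosines per library, with 63.0 to 71.6 calls on average at each. The 145 cytosines of the alpha array covered at least 10 times in all libraries averaged 60.5, 72.9 and 55.4% in SHMT2 cells and 60.1, 52.9 and 56.7% in vector cells, or 62.9% ± 8.98 in SHMT2 cells and 56.6% ± 3.62 in vector cells (SD, n = 3 each). The 123 of the beta array averaged 68.9, 74.2 and 69.9% in SHMT2 cells and 72.2, 73.0 and 73.8% in vector cells. The 367 of the gamma array averaged 55.6, 61.4 and 55.0% in SHMT2 cells and 57.7, 53.4 and 58.0% in vector cells. The groups overlapped in all 3 arrays. All 1211987 autosomal cytosines averaged 31.9% ± 0.142 in SHMT2 cells and 31.5% ± 0.431 in vector cells. The 69 cytosines between the beta and gamma arrays averaged 25.2% ± 2.51 in SHMT2 cells and 24.9% ± 2.20 in vector cells.

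**Figure D3:**
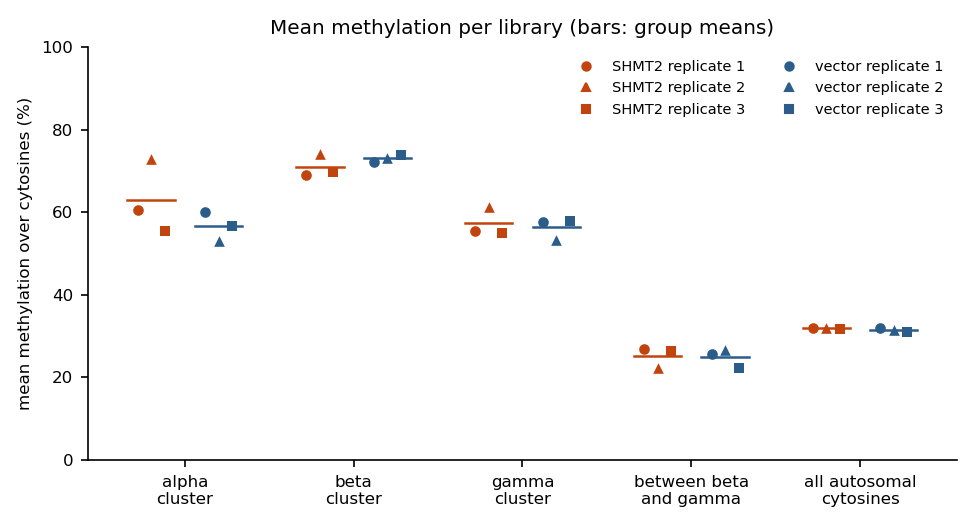
Mean methylation of covered CpG cytosines per library, SHMT2 (orange) left of vector (blue), with group means as bars. SHMT2 replicate 2 stands at 72.9% in the alpha array and 61.4% in the gamma array, above every other library, while all autosomal cytosines of that library average 32.0%.

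SHMT2 replicate 2 stood apart in the alpha array. Its alpha mean lay 12.3 percentage points above the next library, its gamma mean 3.40 points and its beta mean 0.386 points, against 0.159 points over all autosomal cytosines. The difference of the alpha means, SHMT2 minus vector, was 6.35 points with it and 1.39 points without it, and that of the gamma means was 0.961 points with it and -1.06 points without it. Of 63 array tiles of 1 kb with a mean of at least 20%, 46.0% had their highest level in SHMT2 replicate 2, against 10.9% of 64713 such autosomal tiles. Vector replicate 3 was highest in 25.4% of these array tiles, against 9.54% of the autosomal ones. SHMT2 replicate 2 also listed 186 cytosines on the Y chromosome, as vector replicate 1 did with 185, against 1095 to 1158 in the other 4 libraries, and the part of this in the result was not tested.

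Single starts showed no difference that passed the test. A start window, the 1 kb on either side, held at least 3 covered cytosines at 27 of the 58 starts, 6 alpha, 5 beta and 16 gamma. Of the rest, 4 held 1 or 2 and 27 held none. The test was a quasi-binomial regression on methylated and total calls, fitted to all 16202 gene end windows, where a window was called when its adjusted p was under 0.05 and its groups lay 10 or more percentage points apart. It called 0% of all windows and 0 of the 27. At an unadjusted p under 0.05 it found 1 of the 27, against 3.43% of all windows. That window, Pcdhga8 (chr18:37725706-37841873), was also the only one whose groups did not overlap, higher in SHMT2 cells, as 4.1% of all windows were. It stood at 74.4, 75.8 and 66.0% in SHMT2 cells and at 66.0, 55.9 and 59.0% in vector cells, with SHMT2 replicate 3 and vector replicate 1 nearly equal. The difference was 11.7 points with an adjusted p of 0.882 in the regression.

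**Figure D4:**
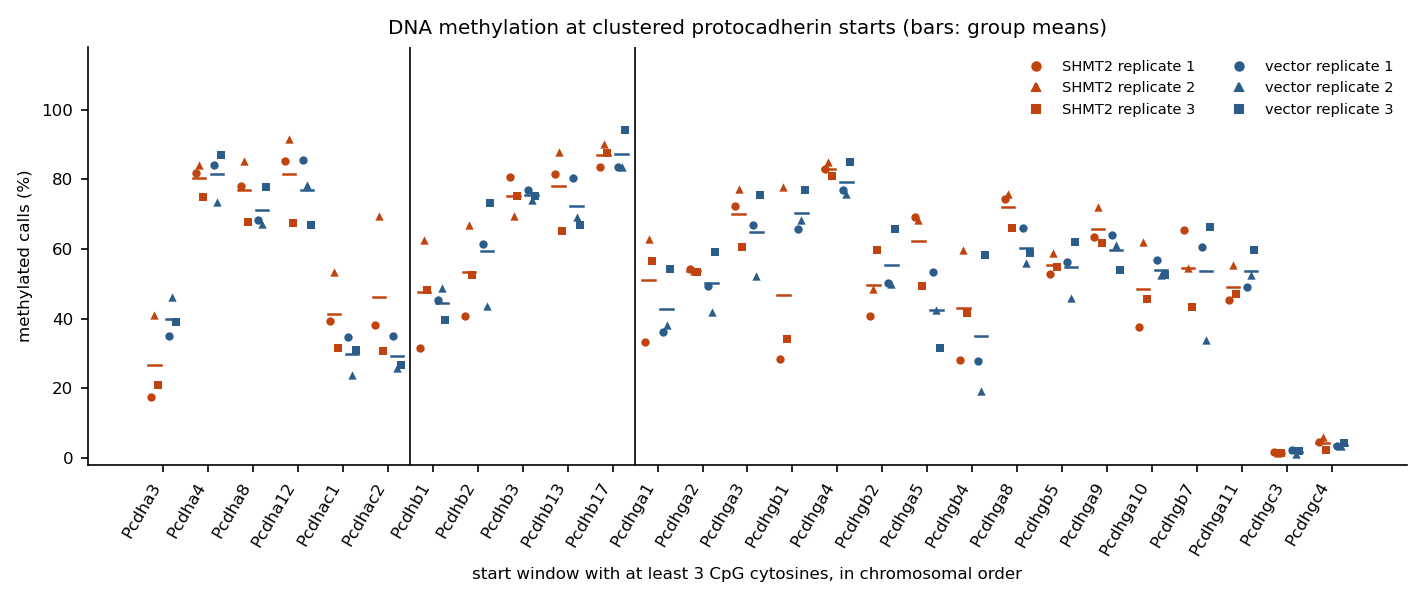
Percent of methylated calls in the start windows of the 27 members with at least 3 covered CpG cytosines, 1 point per library, SHMT2 (orange) left of vector (blue), bars for group means, vertical lines between the arrays. Pcdhgc3 and Pcdhgc4 lie under 6% in every library and the other 25 members have means of 33.3 to 87.1%.

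The levels divided the members sharply. Over both groups the median start window stood at 54.0%, against 1.37% over all gene end windows, and 2 of 27 were under 20%, against 73.0% of all. Both were C-type gamma members. Pcdhgc3 stood at 1.78, 1.39 and 1.40% in SHMT2 cells and at 2.36, 1.15 and 2.14% in vector cells. Pcdhgc4 stood at 4.68, 5.97 and 2.40% in SHMT2 cells and at 3.59, 3.36 and 4.23% in vector cells. By mean TPM, Pcdhgc4 was the first member and Pcdhgc3 the third. The second, Pcdhgb7, was methylated at 65.4, 54.6 and 43.4% in SHMT2 cells and at 60.5, 34.0 and 66.2% in vector cells. The 14 covered A-type and B-type gamma starts had means of 39.1 to 81.1%, lowest at Pcdhgb4 and highest at Pcdhga4. Of the starts with H3K4me3 in some libraries, Pcdhgb4 stood at 28.1, 59.7 and 41.6% in SHMT2 cells and 27.8, 19.4 and 58.2% in vector cells, and Pcdhga10 at 37.6, 62.1 and 45.7% in SHMT2 cells and 56.8, 52.6 and 52.6% in vector cells. The start next to Pcdhga4 in level was Pcdhga3, at 72.4, 77.1 and 60.5% in SHMT2 cells and 67.0, 52.3 and 75.5% in vector cells.

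In the alpha array the highest start was Pcdha4, at 81.8, 84.1 and 75% in SHMT2 cells and 84.3, 73.6 and 86.9% in vector cells. Pcdha12 followed, at 85.2, 91.7 and 67.5% in SHMT2 cells and 85.5, 78.5 and 66.9% in vector cells. The lowest were Pcdha3, at 17.6, 41.2 and 21.1% in SHMT2 cells and 35.0, 46.2 and 39.0% in vector cells on 3 cytosines, and Pcdhac1. Pcdhac1, a C-type member, stood at 39.3, 53.3 and 31.5% in SHMT2 cells and 34.9, 23.8 and 30.9% in vector cells. All 4 overlapped between groups. Pcdhac2, the other alpha C-type member, had the widest alpha difference of 16.9 points, which rested on SHMT2 replicate 2, with 38.2, 69.4 and 30.7% in SHMT2 cells and 35.2, 25.8 and 26.7% in vector cells.

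In the beta array the highest starts were Pcdhb17, at 83.6, 90.04 and 87.5% in SHMT2 cells and 83.6, 83.7 and 94.2% in vector cells, and Pcdhb3, at 80.6, 69.5 and 75.2% in SHMT2 cells and 76.9, 74.2 and 75.2% in vector cells. Pcdhb17 had the highest mean TPM of the beta members, but that mean was 0.063 TPM and rested largely on vector replicate 2. It was also the most methylated start measured. The lowest were Pcdhb1, at 31.7, 62.7 and 48.3% in SHMT2 cells and 45.4, 48.8 and 39.6% in vector cells, and Pcdhb2, at 40.9, 66.9 and 52.5% in SHMT2 cells and 61.3, 43.5 and 73.2% in vector cells. Over the 27 windows the highest and the lowest of the 6 libraries lay a median of 24.4 points apart, and at most 49.4 points, in Pcdhgb1, where SHMT2 replicate 2 stood at 77.8% and the other SHMT2 libraries at 28.4 and 34.2%.

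The C-type starts differed among themselves. The 28 covered cytosines within 500 bases of the Pcdhgc3 start averaged 0.234, 0.179 and 0.119% in SHMT2 cells and 0.109, 0.168 and 0.418% in vector cells. The 20 that lay 897 to 1317 bases past it averaged 24.7, 26.6 and 15.3% in SHMT2 cells and 29.0, 14.7 and 21.9% in vector cells. At Pcdhgc5 only 2 cytosines near the start were covered, too few for the test, and they averaged 82.1, 94.6 and 93.3% in SHMT2 cells and 88.5, 100 and 82.8% in vector cells. Within 500 bases of the Pcdhac2 start, 20 cytosines averaged 38.9, 70.8 and 31.9% in SHMT2 cells and 33.0, 24.1 and 24.8% in vector cells, with SHMT2 replicate 2 far above the rest.

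**Figure D5:**
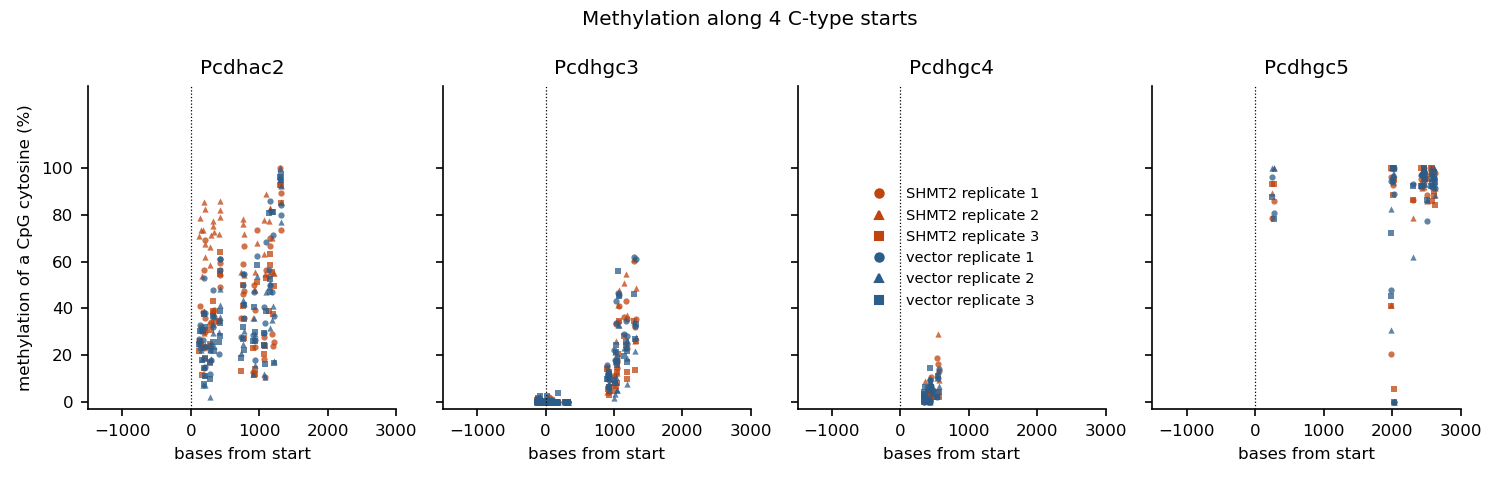
Methylation of each covered CpG cytosine against its distance from the start of 4 C-type members, 1 point per cytosine and library, SHMT2 in orange and vector in blue. Pcdhgc3 is near 0% around the start and climbs past 897 bases, Pcdhgc4 stays low, Pcdhgc5 is mostly high, and SHMT2 replicate 2 (orange triangles) runs above the other libraries along Pcdhac2.

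Tiles of 1 kb were also compared, and most of those in the arrays lie within 2 kb of a member start. The arrays held 67 tiles with at least 3 cytosines, of which 4 were under 20% and 42 at 60% or more. At 60% or more these were 62.7% of the array tiles, against 61.2% of all autosomal tiles, and the median level was 67.3% in the array tiles and 76.8% in all autosomal tiles. None was called, as 0% of 89375 autosomal tiles were, and 4 had an unadjusted p under 0.05, all higher in SHMT2 cells, against 3.68% of all tiles for either direction. The groups did not overlap in 2 tiles that were higher in SHMT2 cells and 1 that was lower, against 3.89% and 4.91% of all tiles. The higher tiles with the smallest p were chr18:37092001-37093000 near Pcdhac1, chr18:37725001-37726000 at Pcdhga8 and chr18:37682001-37683000 near Pcdhgb1, with differences of 17.3, 11.3 and 10.7 points. The fourth, at Pcdhga5, repeats the start window of that member, at 69.1, 68.3 and 49.4% in SHMT2 cells and 53.5, 42.4 and 31.7% in vector cells. The first stood at 62.5, 68.4 and 60.5% in SHMT2 cells and 54.5, 43.2 and 41.9% in vector cells on 3 cytosines. The lower tiles with the smallest p were chr18:37675001-37676000 near Pcdhga3, chr18:37757001-37758000 near Pcdhga11 and chr18:36946001-36947000 at Pcdha3, with differences of -4.13, -6.09 and -13.4 points. All 7 had an adjusted p of 0.890 in the regression.

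H3K4me3 and DNA methylation were found at the same gamma starts. Of the 6 starts with H3K4me3 in all 5 libraries, 5 had methylation data and 3, Pcdhga5, Pcdhgb5 and Pcdhgb7, averaged at least 20% methylation. That is 60% of 5 starts, while 2.1% of 7852 other gene starts with H3K4me3 in all 5 libraries reached that level. Under the Pcdhga5 peak itself, 4 cytosines averaged 69.2, 68.3 and 49.4% in SHMT2 cells and 53.5, 42.3 and 31.7% in vector cells. Under the Pcdhgb7 peak, 8 cytosines averaged 65.2, 54.7 and 43.6% in SHMT2 cells and 60.4, 34.0 and 66.2% in vector cells. Under the Pcdhgb5 peak, 3 cytosines averaged 44.8, 32.4 and 29.5% in SHMT2 cells and 29.8, 22.8 and 33.7% in vector cells. Under the Pcdhga12 region, marked in the SHMT2 libraries alone, 14 cytosines averaged 86.4, 91.2 and 67.3% in SHMT2 cells and 88.0, 58.5 and 59.8% in vector cells. They all lay more than 1 kb past the Pcdhga12 start, whose own window held no covered cytosine, so methylation of that start was not measured. The region is merged across libraries, and the peaks of SHMT2 replicates 5 and 6 ended 1151 and 1337 bases past the start. At Pcdhgb6 no cytosine was covered. The marks and methylation were measured in different libraries, so they cannot be placed on the same DNA molecules.

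Genes beside and between the arrays were described in the same way. Taf7, a subunit of the general transcription factor TFIID that lies between the beta and gamma arrays, was listed at 24.4, 16.6 and 19.8 TPM in SHMT2 cells and 20.6, 25.1 and 29.3 TPM in vector cells, with H3K4me3 in 5 of 5 libraries, H3K4me1 in 4 of 4 and a mean methylation of 0.428% at its marked end. Slc25a2, beside it, was listed at 0.179 to 0.331 TPM in SHMT2 cells and 0.192 to 0.450 TPM in vector cells and had neither mark. Past the gamma array, the actin regulator Diaph1 was listed at 124 to 134 TPM in SHMT2 cells and 112 to 129 TPM in vector cells, and the histone deacetylase gene Hdac3 at 7.02 to 7.68 TPM in SHMT2 cells and 6.39 to 7.59 TPM in vector cells. Their marked ends had H3K4me3 in 5 of 5 libraries and averaged 0.319 and 0.615% methylation. Before the alpha array, Ik was listed at 86.2 to 96.2 TPM in SHMT2 cells and 74.0 to 92.5 TPM in vector cells. Zmat2 was listed at 43.5, 40.7 and 44.4 TPM in SHMT2 cells and 36.1, 37.5 and 35.9 TPM in vector cells, groups that did not overlap, with a log2 fold change of 0.23 and an adjusted limma p of 0.243. Of 12 neighbours tested, 0 were called by limma and 4 had an unadjusted p under 0.05, all higher in SHMT2 cells, against 11.3% of all genes. Beside Zmat2 these were Ndufa2, Wdr55 and Tmco6, with log2 fold changes of 0.45, 0.34 and 0.26.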

How the data were processed

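The RNA-seq tables hold TPM per gene symbol, 1 per library, deposited by the authors. STAR, BWA, MACS2, Bismark, Bowtie2 and mm10 are names from the submitters' processing notes. The sources used here do not give which tool made the TPM or whether it counted by strand. Peak lists were deposited by the authors per library, with a fold enrichment (a ratio) and −log10 p-values and q-values per peak, used only within their own list. Per the file headers, an ERRBS table has the coverage of a cytosine, which is a count of calls, with the percent read as C and as T. Their labels describe bisulfite PCR and direct sequencing, so the steps before these tables are only partly known. The 6 input libraries were not analysed here.

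Expression was tested on log2(TPM + 1), which understates changes of low genes, with limma 3.58.1 in R 4.3.3 (trend, no block, mean of at least 1 TPM, Benjamini-Hochberg adjusted p under 0.05). Methylation was taken at autosomal CpG cytosines that had a coverage of 10 or more in each of the 6 libraries. The quasi-binomial regression, in Python 3.11.15 with scipy 1.17.1, moderated the dispersion across features with a two-sided F test, and was fitted to all 1 kb tiles and on both ends of all protein-coding genes, because the annotation gives no strand, with at least 3 cytosines. Window and tile levels are calls summed over cytosines. Levels of arrays, of stretches near a start and of peaks are means over cytosines. Both tests were checked on simulated data with large set changes and a set spread, which may be narrower than that of these libraries. The changed genes in the expression check had higher levels than any member, so it does not show power for the members. Gene starts for the peak background came from protein-coding genes with a known strand on autosomes other than chromosome 18.

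The members and gene lists were chosen with earlier results of these data known. Named were members with a mean of at least 1 TPM, the 3 with the highest mean TPM per array, those with a peak at the start, the 2 highest and 2 lowest start windows per array, up to 3 windows whose groups do not overlap, 3 higher and 3 lower tiles with the smallest p, 11 set regulators, 6 set neighbours, and 4 genes with the smallest p from each other tested list. Pcdhga10, Pcdhgb6, Pcdhgc5, Pcdhac2 and Pcdhgb1 as methylation or expression examples were also chosen after their values were seen. Some single genes of these lists are not reported here. The alternatives were another pseudocount, no minimum level, another coverage or window, stricter peaks, a replicate block, a test on pooled calls and leaving out each library.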

Additional observations from a re-analysis of the deposited data

How the results depend on the processing

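Of 90 recomputed values, 86 stayed within 1.5 times the reported count or within 1 SD of the reported mean difference. This rule is loose, since it passed gamma mean differences that changed sign and counts of 0 where few or no genes were tested. The calls stayed at 0 for members and for non-clustered protocadherins, but few of them entered these fits. With no minimum level, 31 members and 10 non-clustered protocadherins were tested. In the other fits with at least 2 libraries per group, 0 to 2 members and 0 non-clustered protocadherins were tested. Without vector replicate 1, no member was tested. The fit without vector replicates 2 and 3, chosen after seeing the data, assumes that the lone vector library varies like the others. Leaving out 1 library gave 0 to 1 regulators, the 1 without vector replicate 1, when 850 genes were called in all. Calls were also pooled by group and compared with Fisher's exact test, so that no spread between libraries entered. It called 10 of 67 array tiles, against 5948 of all 89375 autosomal tiles. Among start windows it called 6 of 27, against 746 of all 16202 gene end windows. A call also needed a difference of 10 points, and 73.0% of all gene end windows were under 20%, against 7.41% of the member windows. These counts therefore compare sets of unlike level. Peaks with a −log10 q-value of at least 5 left 1 start with H3K4me1 instead of 5 and 12 with H3K4me3 instead of 15. Neither Pcdhga5 nor Pcdhgb6 then had H3K4me1 in every SHMT2 library, while Pcdhga12 kept its H3K4me3 pattern. The gamma mean difference of 0.961 points was -0.198 when weighted by calls and -0.529 without vector replicate 2, the alpha difference was 10.1 without SHMT2 replicate 3, and the beta difference of -2.04 was -3.63 without SHMT2 replicate 2 and -1.01 without SHMT2 replicate 1. The bounds of 5 and 95 percent on the mean level, also chosen after seeing the data, left 0 calls. With the replicate number as a block 0 members, 0 tiles and 0 windows were called. Same-numbered libraries correlated at -0.42 to -0.06 in RNA and -0.31 to -0.07 in ERRBS, and not every library correlated best with its own number. These correlations use deviations from a group mean of 3 libraries, which forces some of them below 0. They therefore cannot decide whether equal numbers share an origin, and the main fits used no pairing. No paired analysis was possible for peaks because presence per library has no test. RNA depth is unknown, and ERRBS covers 27 of 58 starts.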
